A study of Mus musculus with 12 samples.

Results

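Ligands of the BMP, GDF and TGF-β families and their extracellular modulators were examined in single-cell RNA sequencing of mouse adipose tissue. The set holds 10 genes out of the 31053 counted in every library, namely the ligand genes Gdf10, Gdf15, Inhba, Bmp2, Bmp4, Tgfb1, Tgfb2 and Tgfb3, and the modulator genes Bmper and Grem1. All 10 are annotated as protein-coding. Gdf10 and Gdf15 were selected on their UMI levels by cell class and group in these same libraries, so their levels are given as a description and carry no test. The other 8 were tested.

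The libraries hold the stromal vascular fraction (SVF), the cells left after collagenase digestion once floating adipocytes are removed, of epididymal (eWAT) and inguinal (iWAT) white adipose tissue. For each depot, 6 libraries from male mice aged 12 weeks fell into 3 groups of 2 mice. WT-Veh mice were lean C57BL/6J animals given vehicle (methylcellulose in culture medium), ob/ob-Veh mice were Lepob/Lepob animals given the same vehicle, and ob/ob-Rosi mice were Lepob/Lepob animals given the PPARγ agonist rosiglitazone at 30 mg/kg. Mice were gavaged each morning and each evening over 3 days, and no WT library with rosiglitazone was analysed here. The Lepob allele is a nonsense mutation of the leptin gene carried in every cell of the body, so the comparison with WT-Veh joins leptin deficiency and obesity.

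Ligands of this superfamily are secreted dimers that bind pairs of type I and type II serine/threonine kinase receptors, which phosphorylate SMAD proteins that enter the nucleus. TGF-β1, TGF-β2, TGF-β3 and activins act mainly through SMAD2 and SMAD3, and BMPs through SMAD1, SMAD5 and SMAD9. TGF-β is released in a latent complex held by some, not all, of the LTBP proteins of the matrix, and BMPs are bound outside the cell by antagonists. In adipose tissue, TGF-β and activin A are known to oppose adipocyte differentiation of precursors, and BMP2 and BMP4 to favour commitment to it.

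The raw values were unique molecular identifier (UMI) counts, in which each RNA molecule counts once however often it was copied. The 12 libraries held between 20132553 and 92475986 UMIs and 6472 to 17500 cells that passed the filters. Leptin transcripts were at 30.5 and 79.3 Lep UMIs per 100 Adipoq UMIs in WT-Veh, 3.59 and 10.3 in ob/ob-Veh, and 259 and 361 in ob/ob-Rosi in eWAT, and at 20.5 and 31.4, 33.3 and 14.0, and 164 and 139 in iWAT, where WT-Veh and ob/ob-Veh overlapped. In iWAT ob/ob-Veh the ratios stand on 4 Lep and 12 Adipoq UMIs in mouse 1 and on 8 and 57 in mouse 2. A nonsense allele can still be transcribed, so these counts do not check the genotype. The eWAT libraries labelled ob/ob-Veh also held only 32 and 32 cells like lipid-associated macrophages (LAM-like), against 3138 and 953 in WT-Veh and 1709 and 2192 in ob/ob-Rosi. SVF does not hold cells that float with the adipocytes, and the study's tissue sections and flow cytometry were not analysed here. Group names below are those of the labels. Up to 338 cell barcodes were shared by a pair of libraries, 3.29% of the smaller one (eWAT ob/ob-Rosi mouse 2 and iWAT WT-Veh mouse 2), and the next highest share was 1.23%. Predicted doublets were kept unless stated, and removing them took the APC-like cells of iWAT WT-Veh mouse 1 from 302 to 35.

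Cells were clustered without the 10 genes and clusters were named from marker lists, as progenitor-like (Pi16, Dpp4 and others) and preadipocyte-like (Icam1, Col15a1, Pparg and others) adipocyte precursor cells (APC-like), endothelial (EC-like), perivascular macrophages (PVM-like) and further classes. APC-like clusters that met neither precursor rule were in neither class, and their share differed between groups and mice. In iWAT ob/ob-Veh, 1056 and 779 of 3311 and 3642 APC-like cells were progenitor-like, and 427 and 985 were preadipocyte-like. In iWAT ob/ob-Rosi these were 872 and 3439, and 1697 and 3166, of 2632 and 6669. In iWAT WT-Veh they were 125 and 1966, and 162 and 973, of 302 and 2973. APC-like cells were 1.77% of the kept cells in iWAT WT-Veh mouse 1 and 30.2% in mouse 2. Cells like B cells were 11.0% and 1.14%, and cells like T and NK cells 16.5% and 12.5%. The median depth over all kept cells was 1132 and 4671 UMIs. In eWAT, WT-Veh mouse 1 had 363 and 1105 of 3673 in the classes, and mouse 2 had 253 and 1284 of 1692. The UMIs of each class were summed per library and expressed as counts per 1e+06 UMIs of the sum (CPM). The libraries labelled ob/ob-Veh filled other clusters than the rest. In eWAT their progenitor-like cells lay in APC-like clusters 5 and 8 and those of WT-Veh and most of ob/ob-Rosi in 7, and their preadipocyte-like cells lay in 3, 6 and 10 against 1, 2, 9 and 12. Clusters 6 and 8 were led by Il6, Socs3, Ptgs2 and Has1, genes of an acute inflammatory response, and cluster 1 by the immediate-early genes Egr2 and Jun. Their PVM-like cells lay in cluster 6 of all eWAT cells against 3 and 15. In iWAT the progenitor-like cells of ob/ob-Veh lay in APC-like cluster 4 (led by Il6 and Ptgs2) against 1, 3, 8 and 12, and preadipocyte-like cells in 5 against 2, 6, 7, 9 and 10. In iWAT, ob/ob-Veh mouse 1 had 13 PVM-like cells, too few for a sum, and 2647 and 1998 cells of the ob/ob-Veh libraries lay in a macrophage cluster (cluster 4 of all iWAT cells) that was left unnamed because a neutrophil marker, Mmp9, led it. PVM-like cells were therefore not tested in iWAT.

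**Figure D1:**
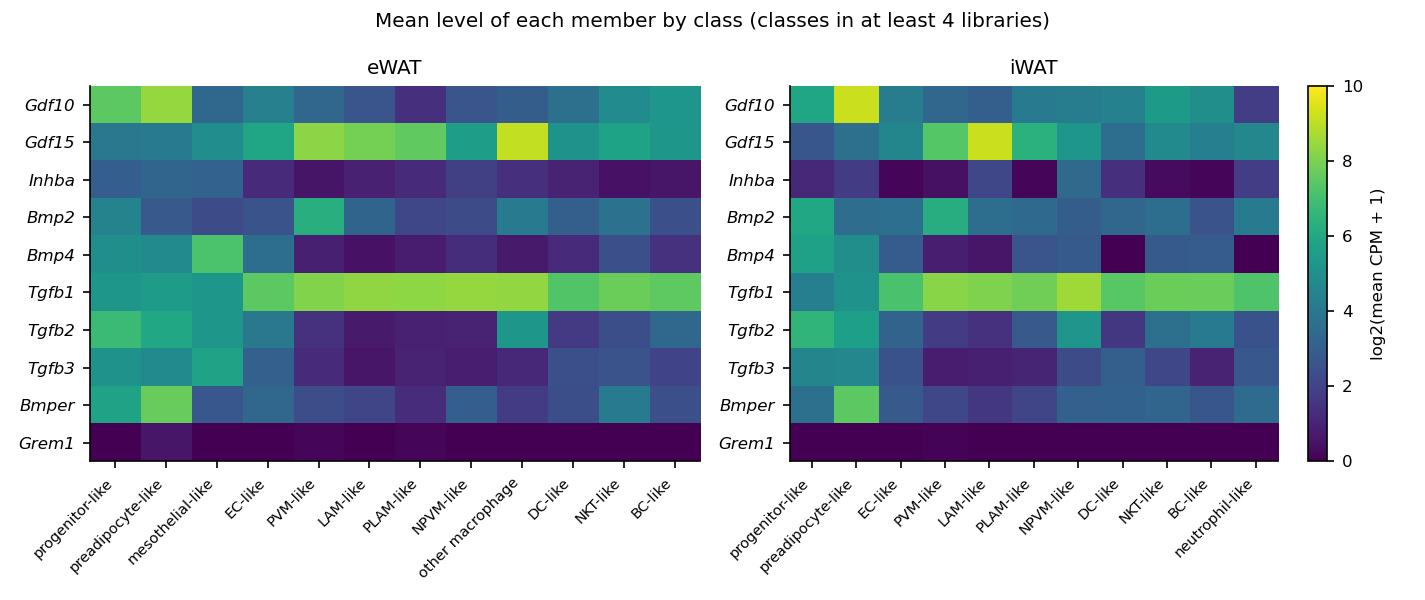
Mean level of each of the 10 genes, as log2(mean CPM + 1) over libraries, in each named class found in at least 4 libraries, for eWAT (left) and iWAT (right). Gdf10 and Bmper peaked in preadipocyte-like cells of both depots, Tgfb1 was spread over macrophage classes and also found in EC-like cells, and Grem1 was near 0 throughout.

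The genes fell into a stromal and a macrophage set, as seen in the colour map of levels by class. In the stromal set, Gdf10 and Bmper had their highest mean in preadipocyte-like cells and Tgfb2 in progenitor-like cells of both depots. Bmp4 was highest in the mesothelial-like cells of eWAT, which line the outside of that depot, and Tgfb3 was at 53.6 CPM there and at 33.6 in progenitor-like cells. In the macrophage set, Gdf15 had its highest mean in eWAT in macrophages that matched no listed subtype (536.8 CPM) and in iWAT in LAM-like cells (592.6 CPM). Tgfb1 lay between 207 and 416 CPM in the LAM-like cells of both depots and the eWAT macrophages like non-perivascular ones (NPVM-like). Tgfb1 was not limited to macrophages, and its levels in EC-like cells of eWAT are given below. EC-like cells held 2.08% to 6.81% of its UMIs in an eWAT library and 1.93% to 24.0% in an iWAT library. Named macrophage classes held 36.5% to 82.4% in eWAT and 3.00% to 62.8% in iWAT. In iWAT ob/ob-Veh 73.8% and 71.6% lay in cells of no named class. Part of the rest lay in other named classes, whose levels are not listed here. Bmp2 was in both sets, since it was found in PVM-like and in progenitor-like cells. The ranges over libraries overlapped between most neighbouring classes, so the order within a set is not resolved.

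Gdf10 (chr14:33923587-33937983, GRCm38, plus strand) encodes GDF10, also named BMP3B, a ligand of the BMP3 branch. In eWAT preadipocyte-like cells its level was 94.4 and 263 CPM in WT-Veh, 572 and 855 in ob/ob-Veh, and 119 and 165 in ob/ob-Rosi. Both ob/ob-Veh libraries lay above all others, and the ranges of WT-Veh and ob/ob-Rosi overlapped. In eWAT progenitor-like cells the values were 98.6 and 308, 153 and 207, and 157 and 155 CPM in the same order of groups, so there the groups overlapped. In iWAT, preadipocyte-like cells held 351 and 366 CPM in WT-Veh, 1394 and 865 in ob/ob-Veh, and 235 and 354 in ob/ob-Rosi. The iWAT progenitor-like cells were lower in level, at 21.2 and 23.7 CPM in WT-Veh, 144 and 120 in ob/ob-Veh, and 11.5 and 28.4 in ob/ob-Rosi. With doublets removed, WT-Veh mouse 1 had 77.3 CPM in iWAT preadipocyte-like cells, from 20 cells, and too few progenitor-like cells for a sum. With all cells, ob/ob-Veh stood above the other groups in 3 of the 4 precursor populations. Gdf10 was selected on such levels, so this count is a description alone.

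Between 78.0% and 93.3% of the Gdf10 UMIs of an eWAT library came from APC-like cells, and in iWAT 89.3% to 93.8% in all libraries but WT-Veh mouse 1, where 48.6% did and 41.1% lay in cells of no named class. At least 1 Gdf10 UMI was found in 16.3% and 51.2% of the eWAT preadipocyte-like cells in WT-Veh, in 84.6% and 86.2% in ob/ob-Veh, and in 33.7% and 41.2% in ob/ob-Rosi. With every cell thinned to 700 UMIs the shares were 6.43% and 16.5%, 32.2% and 40.2%, and 9.82% and 10.6%. PVM-like cells, which should lack Gdf10, had a UMI in 1.29% and 2.4%, 5.08% and 9.61%, and 0.444% and 1.67% of cells, which is taken as the background. Median depths were 2214 to 6820 UMIs per preadipocyte-like cell and 1928 to 5258.5 per PVM-like cell. The values of other classes also rose with those of the precursors. EC-like cells of eWAT held 9.8 and 8.2 CPM in WT-Veh, 55.7 and 29.4 in ob/ob-Veh, and 5.3 and 8.4 in ob/ob-Rosi, and cells like T and NK cells (NKT-like) held 60.4 and 63.5 CPM in ob/ob-Veh against at most 14.4 elsewhere. With doublets removed, ob/ob-Veh held 21.5 and 19.9 CPM in the EC-like and 33.5 and 39.9 in the NKT-like cells.

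**Figure D2:**
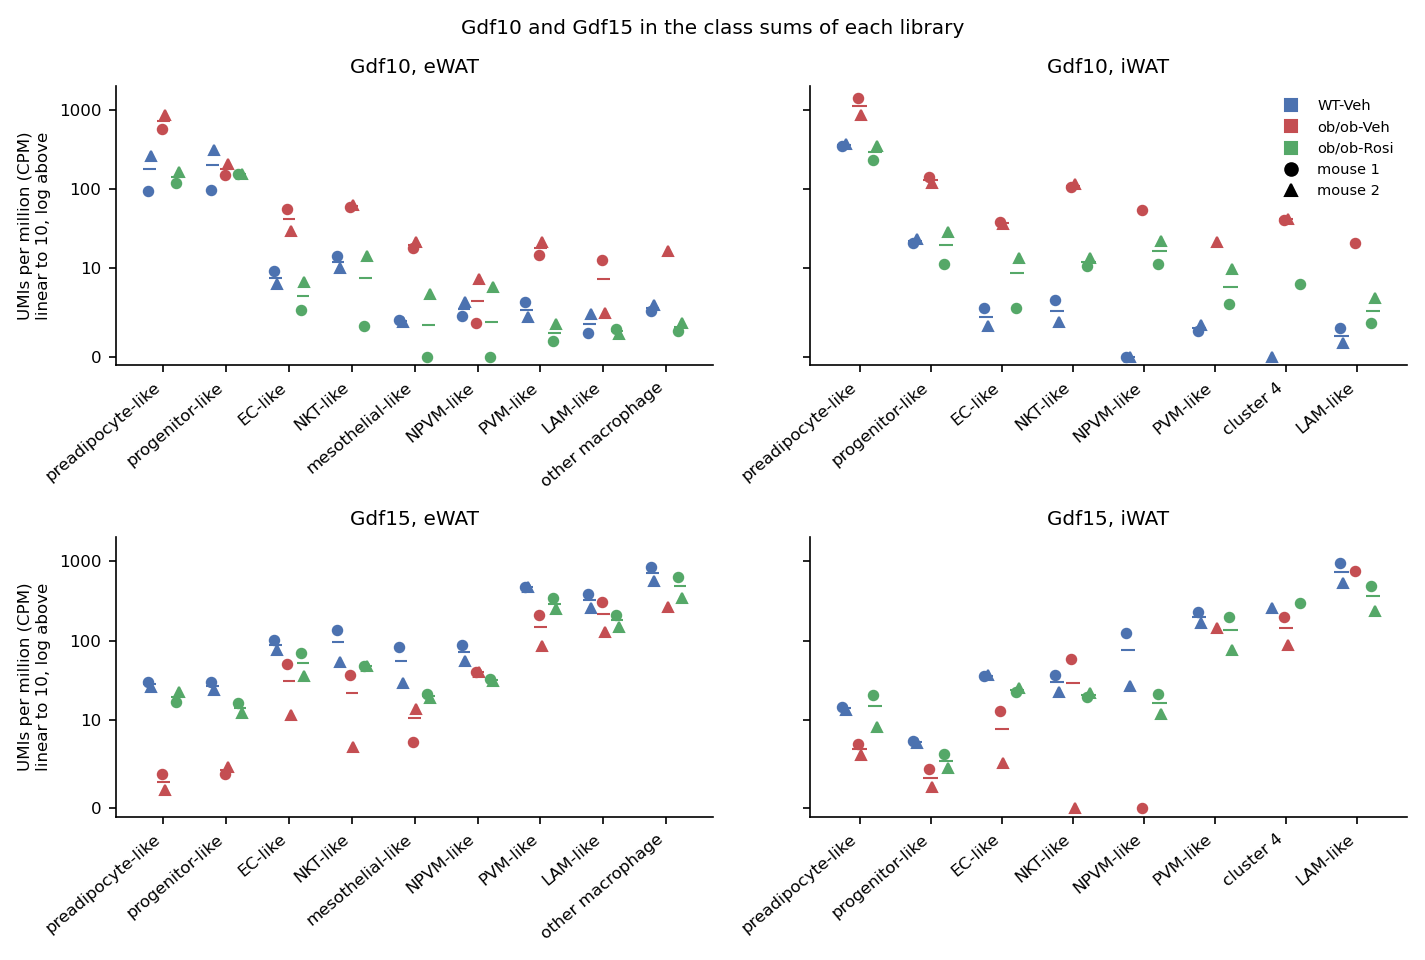
Gdf10 (top) and Gdf15 (bottom) in the class sums of each library, in CPM on an axis that is linear to 10 and logarithmic above, for eWAT (left) and iWAT (right). Each point is 1 mouse, coloured by group, and bars are means of 2 mice. Gdf10 in preadipocyte-like cells lay at 572 and 855 CPM in eWAT ob/ob-Veh, above the other 4 libraries.

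The genes whose pattern was most like that of Gdf10 over 69 sums of library and class in eWAT were Ebf2 (r = 0.91), Gsn (0.89) and Scara5 (0.89). Over 60 sums in iWAT they were Ms4a4d (0.83), Abi3bp (0.83) and Mmp3 (0.82). These Pearson correlations of log2(CPM + 1) are descriptive, since the sums share libraries and classes. Gdf10 was selected on its levels by class, and Gsn was on the APC marker list that named classes. The r of Gsn is thus not independent of the naming.

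Gdf15 (chr8:70629393-70632456, GRCm38, minus strand) encodes a distant member of the family that is induced by cell stress and acts on a receptor in the hindbrain, GFRAL. Gdf15 was highest in macrophages, and in eWAT PVM-like cells it was lowest in the libraries labelled ob/ob-Veh. In eWAT PVM-like cells it was at 473 and 477 CPM in WT-Veh, 209 and 86.6 in ob/ob-Veh, and 341 and 247 in ob/ob-Rosi, without overlap of the groups. The eWAT macrophages of no listed subtype held 861 and 564 CPM in WT-Veh and 643 and 347 in ob/ob-Rosi, and 270 in ob/ob-Veh mouse 2, whose 48 cells gave the only sum of that group. LAM-like cells held 384 and 261, 305 and 127, and 209 and 150 CPM, with overlapping groups, and the ob/ob-Veh values come from 32 cells each.

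In eWAT, 73.3% to 90.8% of the Gdf15 UMIs of a library lay in named macrophage classes. A Gdf15 UMI was found in 32.9% and 54.6% of PVM-like cells in WT-Veh, 20.4% and 15.5% in ob/ob-Veh, and 27.0% and 37.7% in ob/ob-Rosi, and after thinning to 700 UMIs in 19.1% and 22.4%, 10.1% and 4.73%, and 14.6% and 12.3%. Preadipocyte-like cells of eWAT followed at a lower level, with 30.3 and 26.4 CPM in WT-Veh, 3.8 and 2.1 in ob/ob-Veh, and 16.9 and 22.4 in ob/ob-Rosi. The 10 macrophage markers moved the same way in these cells, summing to 4859 and 5726, 1049 and 1562, and 3261 and 3524 CPM, and their part in the Gdf15 values was not tested. Gdf15 is a known target of the integrated stress response, and 12 genes of that response summed to 1696 and 1269 CPM in WT-Veh, 2411 and 1874 in ob/ob-Veh, and 1497 and 1218 in ob/ob-Rosi in PVM-like cells, and their part was not tested.

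In iWAT, LAM-like cells held 949 and 529 CPM of Gdf15 in WT-Veh, 760 in ob/ob-Veh mouse 1 from 32 cells, and 485 and 238 in ob/ob-Rosi. PVM-like cells held 232 and 169 CPM in WT-Veh, 143 in ob/ob-Veh mouse 2, and 197 and 76.6 in ob/ob-Rosi. In LAM-like cells both ob/ob-Rosi libraries lay below the others and ob/ob-Veh lay within WT-Veh, in PVM-like cells WT-Veh and ob/ob-Rosi overlapped, and the unnamed macrophage cluster of ob/ob-Veh held 202 and 88.8 CPM. Named macrophage classes held 10.1% and 4.23% of the Gdf15 UMIs of iWAT ob/ob-Veh, with 74.8% and 79.9% in cells of no named class. In the other iWAT libraries named macrophage classes held 54.8% to 88.7%. The genes most like Gdf15 were Pltp (r = 0.89), Hpgds (0.87) and Apoe (0.87) in eWAT and Pon2 (0.74), Trem2 (0.73) and Ctsd (0.72) in iWAT. Apoe was on the macrophage and preadipocyte marker lists and Trem2 on the LAM list, so their r is not independent of the naming either.

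The 8 other genes were tested in edgeR's quasi-likelihood fits of each class over all genes (Benjamini-Hochberg adjustment). A call required an adjusted p no higher than 0.05 together with a 1.1-fold change or more. The ob/ob effect compares ob/ob-Veh with WT-Veh and the Rosi effect compares ob/ob-Rosi with ob/ob-Veh. The 2 effects share the ob/ob-Veh libraries, so opposite signs are not independent of each other. In eWAT, 23 of 32 gene and class pairs had enough counts to be fitted. The ob/ob effect was called in 5 of them, 3 higher and 2 lower, and the Rosi effect in 7, 3 higher and 4 lower. These counts were 11 and 12 without a filter on low counts, 11 and 11 with the replicate block, and 1 and 2 with cells thinned to 700 UMIs. The block joins libraries of the same replicate number, which the labels do not say to pair mice, so its calls below rest on an assumed pairing. The share of all genes called is given for the main fits alone, so counts under alternatives are not read as particular to the set.

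By class, the ob/ob effect was called for 2 of 6 fitted genes in eWAT progenitor-like cells, where 4.75% of all genes tested were called, and the Rosi effect for 3 of 6, against 4.91%. In eWAT preadipocyte-like cells 2 of 7 were called for each effect, against 8.11% and 10.5% of all genes. In EC-like cells 1 of 6 was called for each, against 7.12% and 5.79%, and in PVM-like cells 0 of 4 and 1 of 4, against 3.7% and 3.13%. In iWAT, 1 of 7 was called for the ob/ob effect in progenitor-like cells, against 0.698% of all genes. No gene of the set was called for the Rosi effect there (1.86%), for either effect in preadipocyte-like cells (0.274% and 0.994%), or for either in EC-like cells (4.09% and 2.9%). Over the 20 fitted pairs of iWAT, 4 had an unadjusted p under 0.05 for the Rosi effect, and DESeq2 called 0. Among all genes, 2102 of 12324 in progenitor-like, 2464 of 11665 in preadipocyte-like and 2659 of 12105 in EC-like cells had such a p.

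**Figure D3:**
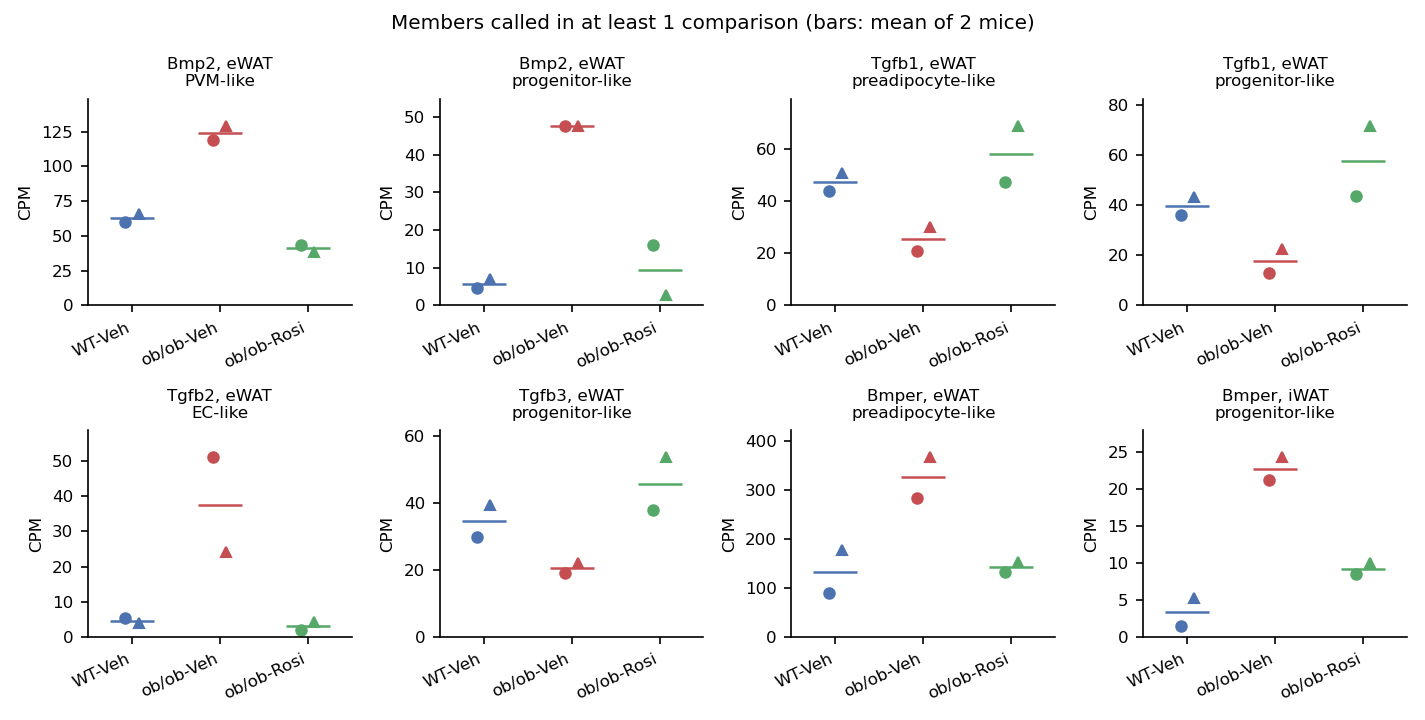
Level in CPM of each gene called in at least 1 comparison, in the class and depot where it was called. Points are single mice, bars are means of 2 mice, and every axis starts at 0. All cells are included, predicted doublets too. In Bmp2, Tgfb2 and Bmper the ob/ob-Veh libraries lay above the others, and in Tgfb1 and Tgfb3 below.

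Bmp2 (chr2:133552159-133562885, GRCm38, plus strand) encodes BMP2, a ligand of the SMAD1, SMAD5 and SMAD9 branch. In eWAT progenitor-like cells it was at 4.7 and 6.9 CPM in WT-Veh, 47.5 and 47.6 in ob/ob-Veh, and 16.1 and 2.8 in ob/ob-Rosi. The WT-Veh values stand on 3 and 9 UMIs and those of ob/ob-Rosi on 17 and 2, so the low levels are imprecise, while both ob/ob-Veh libraries lay far above the rest. Bmp2 rose with the ob/ob effect (log2 fold change 2.96, SE 0.48, adjusted p = 0.00306) and fell with the Rosi effect (-2.16, SE 0.44, adjusted p = 0.0118). The ob/ob effect was not called after cells were thinned to 700 UMIs. Of the 6 fitted genes of the set it had the largest ob/ob effect in this class.

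PVM-like cells of eWAT held 59.8 and 65.9 CPM of Bmp2 in WT-Veh, 119 and 129 in ob/ob-Veh, and 43.8 and 38.3 in ob/ob-Rosi. The 3 groups did not overlap. The fall with the Rosi effect was called (-1.47, SE 0.22, adjusted p = 0.00965), and the ob/ob effect was not (0.86, SE 0.21, adjusted p = 0.0512). The latter was called in 7 of 14 alternatives, with DESeq2, library size alone, no filter on low counts, the replicate block, thinned cells and either ob/ob-Rosi library left out. The call for the Rosi effect was lost without ob/ob-Veh mouse 1, ob/ob-Veh mouse 2 or ob/ob-Rosi mouse 2. A list of 20 genes induced by tissue digestion moved along with Bmp2. Its sum was 6622 and 7217, 19690 and 17938, and 8047 and 4070 CPM in progenitor-like cells, and 17798 and 21874, 34975 and 27534, and 18216 and 19320 CPM in PVM-like cells, and its part in the result was not tested.

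In iWAT progenitor-like cells Bmp2 was at 52.9 and 39.4 CPM in WT-Veh, 67.2 and 83.4 in ob/ob-Veh, and 81.0 and 46.7 in ob/ob-Rosi, and ob/ob-Rosi overlapped both other groups. These ob/ob and Rosi effects were compared with those of eWAT. The first differed by -2.27 on the log2 scale and the second by 2.00, and neither difference was called (adjusted p = 0.157 and 0.183), although each was without a filter on low counts and the second also without eWAT ob/ob-Rosi mouse 1. iWAT PVM-like cells held 106 and 76.4 CPM in WT-Veh, 92.8 in ob/ob-Veh mouse 2 and 56.6 and 39.7 in ob/ob-Rosi, and this was not tested. In eWAT preadipocyte-like cells, where Bmp2 was at most 10.9 CPM, the ob/ob effect of 1.36 was not called (adjusted p = 0.0579) except in 3 of 14 alternatives, with the block (1.32, adjusted p = 0.0271), without a filter and in all APC-like cells together.

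Bmp4 (chr14:46383520-46390669, GRCm38, minus strand) encodes BMP4, which commits precursor cells to the adipocyte lineage. Mesothelial-like cells of eWAT held 143 and 179 CPM in WT-Veh, 171 and 154 in ob/ob-Veh, and 75.8 and 136 in ob/ob-Rosi. Progenitor-like cells were at 25.04 and 39.3, 9.0 and 22.6, and 23.7 and 64.6 CPM in eWAT, and at 6.0 and 77.0, 34.1 and 55.9, and 40.6 and 94.5 in iWAT. Both ob/ob-Veh libraries lay below the other 4 in eWAT progenitor-like cells, where mouse 2 was above mouse 1 in each group, and both ob/ob-Rosi libraries lay below the other 4 in mesothelial-like cells, which were not tested. The groups of iWAT overlapped. Bmp4 was called in no class, and its Rosi effect in eWAT progenitor-like cells (1.55) had an adjusted p of 0.0861. That effect was called in 4 of 15 alternatives, without a filter on low counts (adjusted p = 0.000853), with the replicate block (1.52, adjusted p = 0.00100), without ob/ob-Veh mouse 2 and without ob/ob-Rosi mouse 1. The ob/ob effect there (-1.17) was called in 2 of 15. Preadipocyte-like cells of iWAT held 13.4 and 27.2 CPM in WT-Veh, 15.6 and 20.4 in ob/ob-Veh, and 20.04 and 80.6 in ob/ob-Rosi, so that ob/ob-Rosi mouse 2 alone stood apart. The Rosi effect there (1.45, adjusted p = 0.185) was called in 3 of 15 alternatives, with the block (1.28, adjusted p = 0.0339), without a filter and with doublets removed (1.54, adjusted p = 0.0148), and was 0.21 without ob/ob-Rosi mouse 2. In EC-like cells of eWAT the block alone called the ob/ob effect (1.22, adjusted p = 0.0300).

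Tgfb1 (chr7:25687002-25705077, GRCm38, plus strand) encodes TGF-β1, the form made most by immune cells. In eWAT progenitor-like cells it was at 36.0 and 43.1 CPM in WT-Veh, 13.1 and 22.4 in ob/ob-Veh, and 43.7 and 71.5 in ob/ob-Rosi. Preadipocyte-like cells held 43.9 and 50.6, 20.9 and 30.1, and 47.2 and 68.8 CPM. In both classes the ob/ob-Veh libraries lay below all others.

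A fall of Tgfb1 with the ob/ob effect was called at the limit in progenitor-like cells (-1.23, SE 0.33, adjusted p = 0.04997) and in preadipocyte-like cells (-0.99, SE 0.26, adjusted p = 0.0450). The calls were lost in turn without each of the 4 libraries compared, and both also with library size alone and with thinned cells. In progenitor-like cells the call was lost with DESeq2 too, and in preadipocyte-like cells with doublets removed. The Rosi effect was a rise of 1.76 (SE 0.32, adjusted p = 0.00571) in progenitor-like cells and of 1.28 (SE 0.26, adjusted p = 0.0118) in preadipocyte-like cells, and both calls were lost with thinned cells (adjusted p = 0.122 and 0.156), without ob/ob-Veh mouse 1 and without ob/ob-Rosi mouse 2.

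Macrophage markers moved in the same direction as Tgfb1. Their sum in eWAT progenitor-like cells was 4859 and 3768 CPM in WT-Veh, 382 and 663 in ob/ob-Veh, and 3521 and 3267 in ob/ob-Rosi, with all 10 markers above 0 in every library, and in preadipocyte-like cells the sums were those given above for Gdf15. Their part in the Tgfb1 result was not tested. In PVM-like cells, where Tgfb1 was high, it was at 237 and 321 CPM in WT-Veh, 248 and 321 in ob/ob-Veh, and 210 and 322 in ob/ob-Rosi, and the groups overlapped. EC-like cells of eWAT held 221 and 161, 148 and 153, and 172 and 201 CPM, and no call was made. No fitted iWAT class gave a call.

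Tgfb2 (chr1:186622792-186705989, GRCm38, minus strand) encodes TGF-β2, which needs the co-receptor TGFBR3 for high-affinity binding. In EC-like cells of eWAT it was at 5.4 and 3.9 CPM in WT-Veh, 51.0 and 24.2 in ob/ob-Veh, and 2.0 and 4.2 in ob/ob-Rosi, from 5 and 9, 76 and 70, and 3 and 15 UMIs. Both ob/ob-Veh libraries were above all others. Tgfb2 rose with the ob/ob effect (2.94, SE 0.53, adjusted p = 0.00732) and fell with the Rosi effect (-3.28, SE 0.50, adjusted p = 0.00268). The fall was called in the 6 alternatives that gave it a value and with each library left out, and the rise was lost without WT-Veh mouse 2. With predicted doublets removed, however, the level was 2.27 CPM from 2 UMIs in ob/ob-Veh mouse 1 and 19.5 CPM from 49 UMIs in ob/ob-Veh mouse 2, against 0.93 to 2.61 CPM in the other 4 libraries, and Tgfb2 no longer passed the count filter. Thinning to 700 UMIs also left too few counts for a fit. Nearly all Tgfb2 UMIs of ob/ob-Veh mouse 1 thus lay in cells marked as doublets, and without those cells the higher level in ob/ob-Veh rested on mouse 2.

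In iWAT EC-like cells Tgfb2 was also highest in ob/ob-Veh, at 2.5 and 2.9 CPM in WT-Veh, 16.1 and 17.7 in ob/ob-Veh, and 2.4 and 6.4 in ob/ob-Rosi. The value of ob/ob-Veh mouse 1 stands on few UMIs. Its 109 EC-like cells held 0.272% of the 1840 Tgfb2 UMIs of that library. Neither effect was called there (2.45, adjusted p = 0.0538, and -1.80, adjusted p = 0.103). Of 14 alternatives, the ob/ob effect was called in 8, the replicate block among them (2.45, adjusted p = 0.00634), and the Rosi effect in 3 of 14, again with the block (-1.70, adjusted p = 0.0245). RNA of other cells in the EC-like sums was measured alongside. In eWAT the APC markers of the EC-like sums were at 3252 and 2596, 3356 and 3156, and 2385 and 2490 CPM, and the 8 adipocyte markers, which moved with Tgfb2, summed to 44.4 and 45.2, 1449 and 1123, and 28.9 and 26.2 CPM, as did the mesothelial markers at 22.8 and 3.9, 143 and 94.5, and 3.9 and 5.6 CPM. The part of each in the result was not tested. In iWAT the APC markers moved with Tgfb2, at 1110 and 2090, 5667 and 5270, and 1963 and 3486 CPM, and their part was not tested either.

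In progenitor-like cells of eWAT Tgfb2 was at 59.5 and 102 CPM in WT-Veh, 135 and 203 in ob/ob-Veh, and 80.7 and 83.9 in ob/ob-Rosi. The ob/ob effect of 1.02 (adjusted p = 0.0784) and the Rosi effect of -0.98 (adjusted p = 0.0951) did not pass. They were called in 5 and 2 of 15 alternatives, both with the replicate block (1.04, adjusted p = 0.0135, and -0.96, adjusted p = 0.0237) and without a filter on low counts. In preadipocyte-like cells of eWAT the values were 35.4 and 44.2, 53.8 and 85.3, and 86.7 and 62.3 CPM, with ob/ob-Veh and ob/ob-Rosi overlapping.

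Tgfb3 (chr12:86056745-86079041, GRCm38, minus strand) encodes TGF-β3. It was at 29.7 and 39.3 CPM in WT-Veh, 19.0 and 22.2 in ob/ob-Veh, and 38.0 and 53.6 in ob/ob-Rosi in eWAT progenitor-like cells. It rose with the Rosi effect (1.17, SE 0.28, adjusted p = 0.0284), a call that was lost with DESeq2, with thinned cells, with cells assigned singly to a class, in all APC-like cells together, and without ob/ob-Veh mouse 1, ob/ob-Veh mouse 2 or ob/ob-Rosi mouse 2. In eWAT EC-like cells Tgfb3 followed the pattern of Tgfb2 at 5.4 and 1.3, 22.2 and 9.0, and 3.3 and 3.4 CPM, and the changes of 2.36 and -2.01 were not called (adjusted p = 0.0646 and 0.0765). Each was called in 3 of 12 alternatives, without a filter on low counts, with the block (2.23, adjusted p = 0.00284, and -1.82, adjusted p = 0.00457) and without ob/ob-Veh mouse 2. With predicted doublets removed, ob/ob-Veh held 4.53 CPM from 4 UMIs in mouse 1 and 9.97 CPM from 25 UMIs in mouse 2. The WT-Veh and ob/ob-Rosi libraries then held 0.55 to 3.74 CPM, so the higher level in ob/ob-Veh rested mainly on mouse 2. The mesothelial markers of these EC-like sums, given above for Tgfb2, were also highest in ob/ob-Veh, and their part was not tested.

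Inhba (chr13:16011851-16031621, GRCm38, plus strand) encodes the subunit that forms activin A. It was low, at 15.9 and 5.9 CPM in WT-Veh, 4.7 and 4.9 in ob/ob-Veh, and 13.1 and 7.7 in ob/ob-Rosi in preadipocyte-like cells of eWAT, and at most 4.9 CPM in those of iWAT. It was called in no class. Its ob/ob effect (-1.20) and Rosi effect (1.13) in eWAT preadipocyte-like cells were each called in 2 of 15 alternatives, the first without a filter or without WT-Veh mouse 2 and the second without a filter or with the block (1.13, adjusted p = 0.0332). The highest single value, 143 CPM, came from 14 UMIs of an unnamed eWAT cluster in ob/ob-Veh mouse 1.

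Bmper (chr9:23223076-23485200, GRCm38, plus strand) encodes a secreted protein that binds BMPs and can block or aid them depending on its amount. In eWAT preadipocyte-like cells it was at 90.5 and 177 CPM in WT-Veh, 284 and 366 in ob/ob-Veh, and 134 and 153 in ob/ob-Rosi. Both ob/ob-Veh libraries lay above the other 4. Bmper rose with the ob/ob effect (1.21, SE 0.30, adjusted p = 0.0314) and fell with the Rosi effect (-1.10, SE 0.29, adjusted p = 0.0394). Both calls were lost in all APC-like cells together and with thinned cells. The rise was lost without WT-Veh mouse 1 or either ob/ob-Veh mouse, and the fall without any 1 of the 4 libraries it compares. In eWAT progenitor-like cells Bmper was level, between 46.9 and 61.7 CPM in all 6 libraries.

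In iWAT, progenitor-like cells held 1.5 and 5.3 CPM of Bmper in WT-Veh, 21.1 and 24.2 in ob/ob-Veh, and 8.4 and 10.0 in ob/ob-Rosi, from 1 and 54, 223 and 113, and 44 and 141 UMIs. Of the 596 Bmper UMIs of WT-Veh mouse 1, 71.1% lay in cells of no named class and 20.8% in APC-like cells. The 3 groups did not overlap, and the ob/ob effect was called (2.24, SE 0.39, adjusted p = 0.0427), while the Rosi effect was not (-1.25, adjusted p = 0.102) unless doublets were removed (-1.80, adjusted p = 0.0124), cells were assigned singly (-1.56, adjusted p = 0.0334), the block was used (-1.28, adjusted p = 0.0187), low counts were not filtered (-1.23, adjusted p = 0.0117) or a WT-Veh library was left out. With doublets removed WT-Veh mouse 1 had too few cells for a sum, so that fit rests on 1 WT-Veh mouse at 4.4 CPM, against 20.8 and 18.9 in ob/ob-Veh and 8.1 and 3.7 in ob/ob-Rosi, and WT-Veh no longer lay below both ob/ob-Rosi libraries. The ob/ob call was lost without WT-Veh mouse 2, ob/ob-Veh mouse 1 or ob/ob-Veh mouse 2, and in all APC-like cells together the sign turned, with 79.6 and 58.5, 36.0 and 94.2, and 94.7 and 81.7 CPM. Markers of preadipocyte-like cells, where Bmper is high, summed to 3051 and 1774 CPM in WT-Veh, 1366 and 1576 in ob/ob-Veh, and 2832 and 2250 in ob/ob-Rosi in the progenitor-like cells, and their part in the result was not tested. Preadipocyte-like cells of iWAT held 150 and 168, 139 and 285, and 151 and 177 CPM, with overlapping groups.

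Depots were compared by the interaction of depot with each effect, in progenitor-like and preadipocyte-like cells. The labels do not say whether both depots came from the same mice, and the test treated their libraries as independent. Of 14 fitted pairs, 1 was called for the ob/ob effect and 0 for the Rosi effect by edgeR, with 5 at an unadjusted p under 0.05 for the latter. Such a p for the Rosi effect was found for 1053 of 12389 genes in progenitor-like and 1152 of 12753 in preadipocyte-like cells. All genes were called at 0.872% and 0.896% in progenitor-like and at 0.47% and 0.361% in preadipocyte-like cells for the 2 effects. The call was Bmper in progenitor-like cells, whose ob/ob effect was larger in iWAT than in eWAT by 2.08 on the log2 scale (SE 0.43, adjusted p = 0.0360). Leaving out any 1 of 6 libraries (both eWAT WT-Veh, both eWAT ob/ob-Veh or both iWAT ob/ob-Veh) ended this call, as did thinned cells (1.69, adjusted p = 0.704), doublets removed (2.02, adjusted p = 0.0733), cells assigned singly (1.89, adjusted p = 0.0541) and all APC-like cells together (-0.92, adjusted p = 0.705). In preadipocyte-like cells the depot difference of Bmper in the ob/ob effect (-0.86) was not called. The Rosi effect on Tgfb3 in progenitor-like cells was lower in iWAT than in eWAT (-1.68, adjusted p = 0.0785), a difference called in 6 of 21 alternatives, the block among them (-1.70, adjusted p = 0.0207).

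Grem1 (chr2:113746164-113758646, GRCm38, minus strand) encodes gremlin 1, an antagonist that binds BMP2 and BMP4. It was too low to be fitted anywhere. Its highest values among named classes were 1.2 and 1.6 CPM in eWAT preadipocyte-like cells of ob/ob-Veh. They came from 14 and 16 UMIs found in 0.109% and 0.393% of 1837 and 1526 cells, so the UMIs outnumbered the cells that held them. WT-Veh had 1 and 0 UMIs and ob/ob-Rosi 0 and 0, where a count of 0 allows up to 0.457, 0.956 and 0.265 CPM in the 3 libraries. Over all cells of a library, Grem1 had 15 and 18 UMIs in eWAT ob/ob-Veh, 5 in iWAT ob/ob-Rosi mouse 2 and at most 2 in each of the others. The levels of its class sums were thus near the limit of detection, while most UMIs of eWAT ob/ob-Veh lay in few cells.

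**Figure D4:**
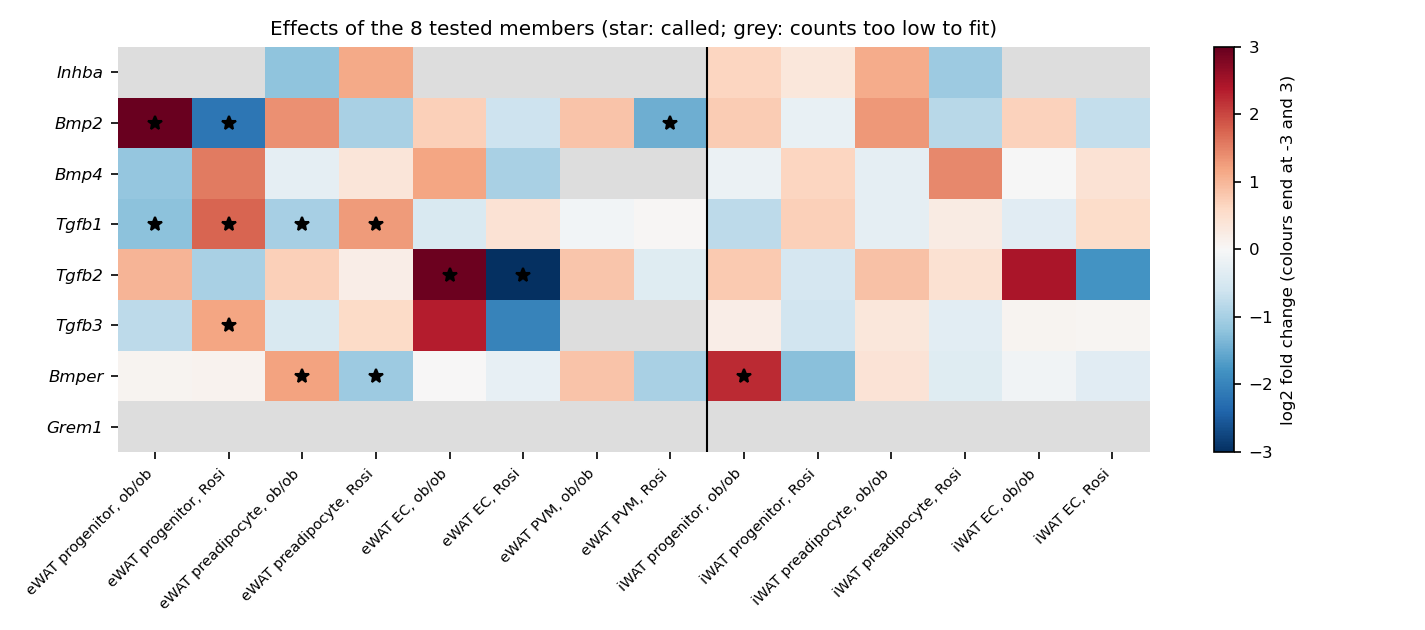
Log2 fold changes of the 8 tested genes (rows) for the ob/ob effect and the Rosi effect in each class and depot (columns, with a line between depots), with stars for called effects and grey where counts were too low. The strongest called changes were Bmp2 in eWAT progenitor-like cells and Tgfb2 in eWAT EC-like cells, and 1 call stands in iWAT.

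Between ob/ob-Rosi and WT-Veh, which share no library, 0 of the 23 fitted pairs in eWAT and 0 of 20 in iWAT were called. In eWAT all genes were called at 0% in progenitor-like, preadipocyte-like and PVM-like cells and at 0.206% in EC-like cells, and in iWAT at 0% in progenitor-like and preadipocyte-like and at 1.12% in EC-like cells. An unadjusted p under 0.05 was found in eWAT for 227 of 9462 genes in progenitor-like and 288 of 12657 in preadipocyte-like cells. EC-like cells of eWAT had 786 of 10681 and PVM-like cells 186 of 11407. In iWAT the counts were 448 of 12324, 368 of 11665 and 1032 of 12105 in progenitor-like, preadipocyte-like and EC-like cells. In each depot 2 pairs of the set had an unadjusted p under 0.05, and DESeq2 called 0 in both. With 2 mice a group this does not show that the levels were the same, and the changes of the fitted genes ran from -0.60 to 0.89 in eWAT and from -0.44 to 1.35 in iWAT on the log2 scale.

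Other genes of the pathway were taken from a list of 83, of which 45 to 65 could be tested in a class of 1 depot. In eWAT progenitor-like cells 2 of 54 rose and 7 fell with the ob/ob effect, and 7 rose and 1 fell with the Rosi effect, where 4.75% and 4.91% of all genes were called. Their median changes were 0.04 and -0.05, beside 0.00 and 0.02 over all genes tested. In eWAT preadipocyte-like cells 6 of 65 rose and 8 fell with the ob/ob effect, and 7 rose and 9 fell with the Rosi effect, against 8.11% and 10.5% of all genes. The list was written with earlier results of these data known and is described by its counts alone.

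Of the extracellular inhibitors and latency proteins tested in eWAT progenitor-like cells, 1 of 17 rose and 3 fell with the ob/ob effect (median -0.04), and 3 rose and 0 fell with the Rosi effect (median -0.02), beside 4.75% and 4.91% of all genes called. Ltbp2, a matrix protein of the LTBP family, was at 100 and 174 CPM in WT-Veh, 1.0 and 2.8 in ob/ob-Veh, and 67.4 and 59.1 in ob/ob-Rosi in eWAT progenitor-like cells. It fell with the ob/ob effect (-6.40, SE 0.43, adjusted p = 4.33e-06) and rose with the Rosi effect (5.31, SE 0.44, adjusted p = 2.48e-05), under every alternative and with each library left out. In iWAT progenitor-like cells Ltbp2 was at most 0.4 CPM in every library. Ltbp2 was counted with the latency proteins by its family name, and latent TGF-β itself was not measured. Among inhibitors, Fst, which encodes the activin-binding protein follistatin, was at 46.9 and 28.5 CPM in WT-Veh, 116 and 94.8 in ob/ob-Veh, and 65.5 and 35.8 in ob/ob-Rosi in eWAT progenitor-like cells and rose with the ob/ob effect (1.54, SE 0.36, adjusted p = 0.0269), a call lost with thinned cells and without WT-Veh mouse 2 or ob/ob-Veh mouse 1. Bmp7, a BMP ligand gene, was at 21.9 and 16.9, 43.5 and 58.2, and 14.2 and 15.1 CPM there, and was the 1 gene of the list that fell with the Rosi effect there (-1.75, SE 0.32, adjusted p = 0.00586), which held with each library left out.

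In eWAT preadipocyte-like cells the pseudoreceptor gene Bambi, whose product blocks TGF-β receptors, was at 14.4 and 11.6 CPM in WT-Veh, 47.4 and 64.2 in ob/ob-Veh, and 12.1 and 7.3 in ob/ob-Rosi (2.03, SE 0.31, adjusted p = 0.00335 for the ob/ob effect and -2.50, SE 0.32, adjusted p = 0.00107 for the Rosi effect). Runx2, a transcription factor gene of bone that responds to BMP and TGF-β, was at 16.3 and 13.9, 1.3 and 1.3, and 17.2 and 21.9 CPM (-3.58, SE 0.35, adjusted p = 0.000429, and 3.97, SE 0.35, adjusted p = 0.000243). These 4 calls held under every alternative and with each library left out.

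Of 15 target genes of the list tested in eWAT preadipocyte-like cells, 2 rose and 4 fell with the ob/ob effect (median -0.36), and 3 rose and 2 fell with the Rosi effect (median 0.48), beside 8.11% and 10.5% of all genes called. Runx2 is 1 of them, and the 4 described next were chosen after their values were seen. Ctgf, which encodes a matrix-associated growth regulator, was at 219.6 and 50.001 CPM in WT-Veh, 17.8 and 20.2 in ob/ob-Veh, and 141.8 and 70.8 in ob/ob-Rosi and fell with the ob/ob effect (-2.96). Pmepa1, a feedback inhibitor gene, fell from 251.8 and 207.9 CPM to 77.7 and 85.0 (-1.60). Tgfbi, which encodes a matrix protein named for its induction by TGF-β, rose from 28.0 and 45.7 to 65.9 and 116.5 CPM (1.1999), and the BMP target gene Id2 from 45.9 and 37.2 to 115.5 and 166.8 (1.67). The adjusted p-values of these 4 changes lay between 0.00499 and 0.0435. The call of Id2 held with each library left out. With thinned cells and in all APC-like cells together Pmepa1 and Tgfbi were not called, nor was Tgfbi with library size alone or cells assigned singly. That of Ctgf was lost without WT-Veh mouse 1, that of Pmepa1 without ob/ob-Veh mouse 2, and that of Tgfbi without either WT-Veh mouse or ob/ob-Veh mouse 2.

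Among the listed genes of at least 10 CPM, the largest changes called in EC-like cells of eWAT were Snai2 (1.74, adjusted p = 0.0431) and Inhbb, the other activin subunit gene (-2.09, adjusted p = 0.0201), for the ob/ob effect, and Ltbp1 (-1.81, adjusted p = 0.0195) for the Rosi effect. In iWAT the largest rise with the ob/ob effect was that of Fst (4.43, adjusted p = 0.00279), and the largest changes with the Rosi effect were Smad1 (1.36, adjusted p = 0.0446) and Smad7 (-1.40, adjusted p = 0.0367), the genes of a BMP mediator and of an inhibitory SMAD. Fst was at 0.6 and 1.7 CPM in WT-Veh, 38.6 and 32.5 in ob/ob-Veh, and 7.5 and 14.9 in ob/ob-Rosi, in step with the APC markers of these sums given above for Tgfb2, and the part of that RNA was not tested. Fst (2.97, adjusted p = 0.0287) and Smad6 (-2.15, adjusted p = 0.00628) were also called between ob/ob-Rosi and WT-Veh in iWAT EC-like cells. Of these calls, Snai2 was lost with DESeq2, doublets removed and cells assigned singly, Ltbp1 with thinned cells and doublets removed, both calls of Fst with thinned cells, Smad1 with library size alone and thinned cells, and Smad1, Smad7 and the second call of Fst with cells assigned singly. Every call of this paragraph was lost with at least 1 library left out. In eWAT these were WT-Veh mouse 1 and ob/ob-Veh mouse 2 for Inhbb and Snai2, ob/ob-Veh mouse 1 for Snai2 and Ltbp1, and ob/ob-Rosi mouse 2 for Ltbp1. In iWAT they were either ob/ob-Veh mouse for every gene, and also ob/ob-Rosi mouse 2 for Smad1, Smad7 and the second call of Fst, ob/ob-Rosi mouse 1 for Smad1, and WT-Veh mouse 2 for the second call of Fst.

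In iWAT progenitor-like cells 1 of 65 listed genes rose and 0 fell with the ob/ob effect, against 0.698% of all genes called, and 1 rose and 2 fell with the Rosi effect, against 1.86%. In iWAT preadipocyte-like cells 0 of 60 were called for the ob/ob effect, against 0.274%, and 0 rose and 2 fell with the Rosi effect, against 0.994%. Bmp6, a BMP ligand gene, was at 37.8 and 40.2 CPM in WT-Veh, 13.3 and 17.6 in ob/ob-Veh, and 64.9 and 47.6 in ob/ob-Rosi in progenitor-like cells and rose with the Rosi effect (1.90, SE 0.27, adjusted p = 0.0131), and Htra1, a protease gene, fell (-1.57, adjusted p = 0.0380). In preadipocyte-like cells the BMP antagonist gene Chrdl1 fell with the Rosi effect from 410.9 and 210.6 CPM to 38.8 and 33.9 (-3.10, SE 0.55, adjusted p = 0.0420). None of the 3 was called in all APC-like cells together. Without either ob/ob-Veh mouse none of these 3 calls was made, and without either ob/ob-Rosi mouse those of Htra1 and Chrdl1 were not. Between depots, the ob/ob effect on Tgfbi in progenitor-like cells was higher in iWAT than in eWAT by 2.46 (adjusted p = 0.0313) and the Rosi effect lower by 3.42 on the log2 scale (-3.42, adjusted p = 0.00354), the Rosi effect on Bmp6 was higher by 2.02 (adjusted p = 0.0110), and the ob/ob effect on Ltbp4 in preadipocyte-like cells was lower (-2.39, adjusted p = 0.0237). With thinned cells the Rosi effect on Tgfbi alone was called. With cells assigned singly and in all APC-like cells together only that on Bmp6 was, and with doublets removed all but Ltbp4. Of these 4 the Rosi effect on Tgfbi alone was called with each library left out. The calls of Tgfbi for the ob/ob effect and of Ltbp4 were lost without any of the eWAT WT-Veh, eWAT ob/ob-Veh or iWAT ob/ob-Veh mice and also without iWAT WT-Veh mouse 1 (Tgfbi) or mouse 2 (Ltbp4), and that of Bmp6 without eWAT ob/ob-Veh mouse 1, eWAT ob/ob-Veh mouse 2 or iWAT ob/ob-Veh mouse 1.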

How the data were processed

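The authors made 10x Genomics 3' v3.1 libraries, aligned reads to mm10 and deposited raw counts of UMIs by gene and cell barcode, with 1 matrix a library and nothing pooled or normalized (Cell Ranger 3.0.2, after bcl2fastq 2.19.1.403). A 3' UMI counts 1 end of an RNA, so levels do not scale with gene length. The study's cell limits were applied, namely 700 to 22000 UMIs, 200 to 6000 genes and mitochondrial UMIs below 25%. Each depot was clustered with the Leiden algorithm (leidenalg 0.10.2, numpy 2.4.6 and scipy 1.17.1 in Python 3.11.15), without integration and without the 10 genes, and clusters were named from marker lists. A precursor cluster needed 3 markers of its class in 20% of its cells. The mean level of those markers, standardized across the APC-like clusters, had to exceed that of the other precursor class. The cluster's top genes by fold over the other APC-like cells had to hold at least as many markers of its class as of the other. Markers of any other lineage could not outnumber them there. No marker was tested statistically against the remaining precursor clusters. Library totals ran from 20132553 to 92475986 UMIs, and limits given for counts of 0 cover counting error only.

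UMIs were summed per library and class with at least 20 cells and fitted over all genes with edgeR 4.0.16 in R 4.3.3 (TMM, filterByExpr, quasi-likelihood test, 6 libraries of a depot, no replicate block). This replaced the study's Wilcoxon test across cells, because mice are the replicates. The labels call the libraries biological replicates. Alternatives were DESeq2 1.42.0, library size alone, no filter, no minimum fold, a replicate block, cells thinned to 700 UMIs, predicted doublets removed, cells assigned singly, all APC-like cells together, and each library left out, where the lone library of a group was assumed to vary like the others. Doublets were otherwise kept. Of the pathway list, the called gene with the largest rise and fall among those of at least 10 CPM was named in each fit, except 1 gene of the list that is counted but not reported here by name. Genes alike Gdf10 and Gdf15 were the 3 with the highest r. The 10 genes, the lists, the tests and the naming rules were chosen with earlier results of these data known. The tests were also run on simulated counts, whose outcome is not given here and is not used as support. Positions are from GENCODE for GRCm38. Xist was nearly absent from every library.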

Additional observations from a re-analysis of the deposited data

Results flagged for a closer look

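The ob/ob effect on Bmper in progenitor-like cells differed between the depots, by 2.08 on the log2 scale in favour of iWAT (SE 0.43, adjusted p = 0.0360, edgeR's interaction test). It was singled out because the difference between the depots was itself tested and called. Bmper was at 46.9 to 61.7 CPM in all eWAT progenitor-like sums and went from 1.5 and 5.3 CPM in WT-Veh to 21.1 and 24.2 in ob/ob-Veh in iWAT. In iWAT WT-Veh mouse 1, the library at 1.5 CPM, 71.1% of 596 Bmper UMIs lay in cells of no named class and 20.8% in APC-like cells. The value of 1.5 CPM is 1 UMI, and with predicted doublets removed that library had too few cells for a sum and the difference was not called (2.02, adjusted p = 0.0733). In all APC-like cells together the direction turned (-0.92, adjusted p = 0.705), and the call was also lost with thinned cells, with cells assigned singly and without any 1 of 6 libraries (both eWAT WT-Veh, both eWAT ob/ob-Veh or both iWAT ob/ob-Veh).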

How the results depend on the processing

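Counts of called pairs moved by over 1.5 times under these alternatives. No share of all genes called is given for the alternatives, so the counts are not read as particular to the set. For the eWAT ob/ob effect (5 pairs) they were 11 without a filter on low counts, 11 with the replicate block, 1 with thinned cells, 3 without doublets and 2 to 7 with a library left out. For the eWAT Rosi effect (7) they were 12 without a filter, 11 with the block, 2 with thinned cells and 2 to 8 with a library left out. For the iWAT ob/ob effect (1) they were 2 with DESeq2, library size, no filter, the block or cells assigned singly, 0 with thinned cells and 0 to 2 with a library left out. For the iWAT Rosi effect (0) they were 3 without a filter, 3 with the block, 2 without doublets, 1 with cells assigned singly and 0 to 2 with a library left out. Between ob/ob-Rosi and WT-Veh in iWAT (0), 1 pair was called without a filter. For depot differences (1) they were 2 with DESeq2, 4 without a filter, 2 with the block, 0 with thinned cells, 2 without doublets, 0 with cells assigned singly and 0 to 2 with a library left out. The cause was not tested, beyond that thinning leaves fewer UMIs. The labels give the same numbers to mice of each group without saying that they pair them. Deviations of same-numbered libraries correlated at 0.140 to 0.326 in eWAT and at 0.0457 to 0.511 in iWAT.

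In all APC-like cells together Bmper turned sign in the iWAT ob/ob effect (-0.17), the iWAT Rosi effect (0.56) and the depot difference (-0.92), all from progenitor-like cells. In eWAT progenitor-like cells Chrdl1 turned in the ob/ob effect (-2.13 to 0.24) and Tgfbi in the ob/ob effect (-1.74 to 0.42) and the Rosi effect (2.03 to -0.35), and with cells assigned singly the ob/ob effect on Tgfbi was 0.18. Of the 37 effects of the 8 genes that were called or had an adjusted p up to 0.2, 3 changed sign under at least 1 alternative, and of the other 120, which were not called, 71 did. The 37 were chosen by adjusted p in these same data, and the others include changes as small as -0.004. This contrast follows from the selection and does not measure how robust the 37 are. Without doublets the iWAT progenitor-like fit held 1 WT-Veh library. Groups of 2 mice, sums of few UMIs and clusters that differ between groups limit every comparison.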
